A study of Homo sapiens with 6 samples.

Results

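The genes described here are 40 cell cycle and DNA replication genes, chosen by symbol from a list of 17 genes of S phase and 23 genes of mitosis, out of the 26485 gene symbols measured. The data were RNA-seq read counts per gene from A549, a human lung carcinoma cell line. Every library came from A549 cells that constitutively expressed dCas9-KRAB, a catalytically dead Cas9 fused to a repressor domain, together with rat Nkx2-1, a lung transcription factor. Both transgenes had been delivered by lentivirus, with puromycin selection for dCas9-KRAB and sorting on GFP for Nkx2-1. In 3 libraries the cells had been transfected with sgRNA #2, a guide to the first intron of SFTPB, which encodes surfactant protein B, and in 3 with a non-targeted sgRNA (sgRNA control). The 40 genes were examined for whether the proliferative state of the cells differed between the 2 groups and whether genes of S phase and of mitosis differed alike. The study described its triplicates as biological. The parent line without Nkx2-1 or dCas9-KRAB was not analysed here, so each value describes transgenic A549 cells.

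Cells copy their DNA in S phase and divide it in mitosis, and the genes for each step are switched on in turn. E2F transcription factors, held in check by the retinoblastoma protein until cyclin and CDK activity rises, turn on genes for replication licensing, nucleotide supply and the replisome. Later in the cycle the MuvB complex with B-MYB and FOXM1 turns on genes for the spindle, kinetochore and cytokinesis, many through promoter elements called CHR (cell cycle genes homology region) and CCAAT boxes, which NF-Y binds. The same MuvB core forms the DREAM repressor in resting cells, and p21, the product of CDKN1A, is a CDK inhibitor that acts upstream of it. A549 cells carry a homozygous deletion at the CDKN2A locus, which encodes the p16 inhibitor.

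Promoter letters differed between the 2 classes. RefSeq windows (GRCh38.p14) from 250 bases before to 50 bases after the annotated start were available for 14 S-phase and 18 mitotic members. They were searched on both strands for the E2F letters TTTGGCGC, TTTCCCGC, TTTCGCGC and TTTGCCGC, the CHR letters TTTGAA and the letters CCAAT. E2F letters were present for 10 of the 14 S-phase members (71.4%), for 3 of the 18 mitotic members (16.7%), and for 6.59% of the 9918 tested genes with a window. CHR letters were present for 12 of the 18 mitotic members (66.7%), for 1 of the 14 S-phase members (7.14%, RRM1, a subunit of ribonucleotide reductase), and for 13.5% of the tested genes. CCAAT was common in both classes, with 10 of 14 S-phase and 16 of 18 mitotic members (71.4% and 88.9%) against 43.0% of the tested genes. CDK1, CENPA and NUSAP1 were the 3 mitotic members with E2F letters, and all 3 also held CHR letters. These matches describe letters in a window and do not show that a factor was bound. CCNE2, MCM4, MCM5, AURKA, BIRC5, FOXM1, TPX2 and UBE2C were not included in this search.

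**Figure D1:**
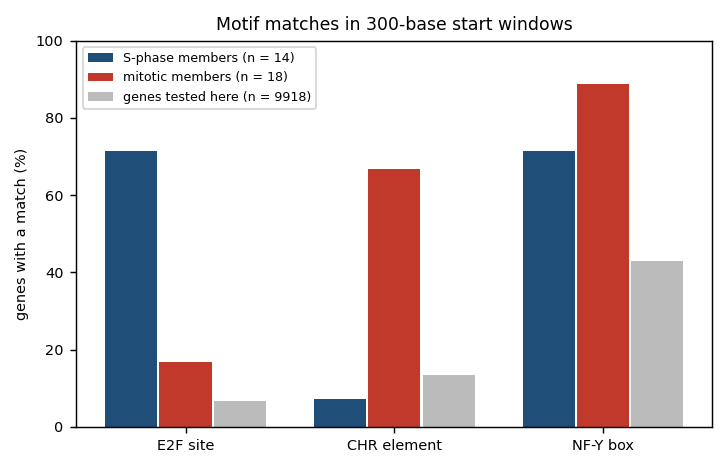
Share of genes, in percent on the vertical axis, whose promoter window held each motif, for the S-phase members with a window (14), the mitotic members with a window (18) and the tested genes with a window (9918). The E2F bar was highest for S-phase members (71.4%), the CHR bar for mitotic members (66.7%), and the NF-Y box (CCAAT letters) was frequent in both.

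The stretches below show where these letters lie in 3 S-phase genes. Each is the 100 bases ending just before the RefSeq start (GRCh38.p14), written in the gene's own direction, with the E2F letters on either strand in capitals. The 3 genes are the most abundant by mean CPM whose stretch held a match and overlapped no annotated exon. MCM6, a subunit of the helicase that opens replication origins, is shown at chr2:135876444-135876543 on the minus strand. E2F1 itself, whose promoter answers to E2F, is shown at chr20:33686386-33686485 on the minus strand. GINS2, part of the GINS complex that joins the helicase, is shown at chr16:85688955-85689054 on the minus strand. In MCM6 matches on both strands overlapped in 1 run of capitals.
MCM6: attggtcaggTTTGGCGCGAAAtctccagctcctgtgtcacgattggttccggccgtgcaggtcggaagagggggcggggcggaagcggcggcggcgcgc
E2F1: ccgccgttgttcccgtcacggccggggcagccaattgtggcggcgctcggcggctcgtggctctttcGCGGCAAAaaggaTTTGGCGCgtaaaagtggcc
GINS2: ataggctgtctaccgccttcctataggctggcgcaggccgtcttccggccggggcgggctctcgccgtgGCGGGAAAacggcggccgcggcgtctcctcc

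The next stretches, chosen by the same rule among mitotic genes, carry the CHR letters on either strand in capitals. MKI67, which encodes the proliferation antigen Ki-67, is shown at chr10:128126424-128126523 on the minus strand and held 2 copies. KIF11, which encodes the kinesin that pushes spindle poles apart, is shown at chr10:92593030-92593129 on the plus strand. CDC20, an activator of the anaphase-promoting complex, is shown at chr1:43358881-43358980 on the plus strand.
MKI67: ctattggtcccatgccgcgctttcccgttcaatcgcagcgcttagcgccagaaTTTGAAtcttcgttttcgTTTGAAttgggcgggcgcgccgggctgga
KIF11: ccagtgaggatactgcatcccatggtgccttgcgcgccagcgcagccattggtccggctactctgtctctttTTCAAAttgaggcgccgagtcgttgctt
CDC20: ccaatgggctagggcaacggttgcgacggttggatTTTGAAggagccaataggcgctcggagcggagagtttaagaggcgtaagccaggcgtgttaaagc

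The libraries held 6341459, 7068999 and 7584611 gene counts in the control group and 7058274, 6598372 and 6047554 in the sgRNA #2 group, in the order of replicates 1, 2 and 3. Levels are given as CPM, read counts scaled to the library's total of gene counts with edgeR's TMM factors, and 3 counts corresponded to between 0.394 and 0.4997 CPM. SFTPB (chr2:85657314-85668741, GRCh38) separated the groups by label. Its raw counts were 2683, 2877 and 3155 for the control group and 40, 42 and 49 for sgRNA #2. Its level was 417 ± 9.92 CPM (SD, n = 3) in the control group and 6.72 ± 1.29 CPM (SD, n = 3) with sgRNA #2. That is a log2 fold change of -5.96 (SE 0.101, edgeR quasi-likelihood test with Benjamini-Hochberg adjustment, adjusted p = 5.56e-17), while an exact two-sided permutation test of 3 against 3 can give no p below 0.10. Among markers of the epithelial line, KRT8 lay between 1485 and 2064 CPM and CDH1 between 184 and 248 CPM, whereas KRT19 had 0 to 4 counts. CDH1, which encodes E-cadherin, was itself lower with sgRNA #2 (log2 fold change -0.34, SE 0.0669, edgeR adjusted p = 0.00728). PTPRC, CD3E, CDH5, COL1A2 and DCN, which define leukocytes, endothelium or fibroblasts, had 0 counts in all 6 libraries, although CD68 had 402 to 480 counts.

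All 40 members were expressed and passed the count filter, and none passed the test for a change with sgRNA #2. At an adjusted p under 0.05 (edgeR quasi-likelihood test, Benjamini-Hochberg over 13356 genes), 0 of 17 S-phase and 0 of 23 mitotic members passed, against a background of 2.69% of all tested genes (62 higher, 0.464%, and 297 lower, 2.22%). The background was close to this among the 9936 tested genes within the members' range of mean CPM (2.83%). None reached the study's own cut-offs, which add a log2 fold change of at least 1 in size and were met by 0.719% of tested genes. DESeq2 called 0 members too, with 1.93% of its genes called. At an unadjusted p under 0.05, 0 of 40 members passed, against 11.1% of all tested genes and 11.4% of those in the same range. The smallest unadjusted p among the members was 0.0863, for CCNB1.

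The intervals around the members' changes were narrow. The 40 log2 fold changes ran from -0.12 (TYMS) to 0.18 (CCNE1), 22 above 0 and 18 below, and their median absolute size was 0.0470, beside 0.0748 over the tested genes of the same abundance range and 0.0916 over all tested genes. Each 95% interval lay within 0.5 of 0 on the log2 scale, the outermost bounds being -0.38 for TYMS (0.770-fold) and 0.45 for CCNE1 (1.36-fold). S-phase members had a median log2 fold change of 0.02, with 11 above and 6 below 0, and standard errors of 0.0660 to 0.157. Mitotic members had a median of -0.01, with 11 above and 12 below 0, and standard errors of 0.0627 to 0.0983. The medians of the classes differed by 0.03, and no test was made of this difference. Between single libraries of a group, the S-phase minus mitotic median deviation had an SD of 0.0278. That is a spread of single libraries and not of a difference between group means. The median over all 13356 genes was 0.00.

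**Figure D2:**
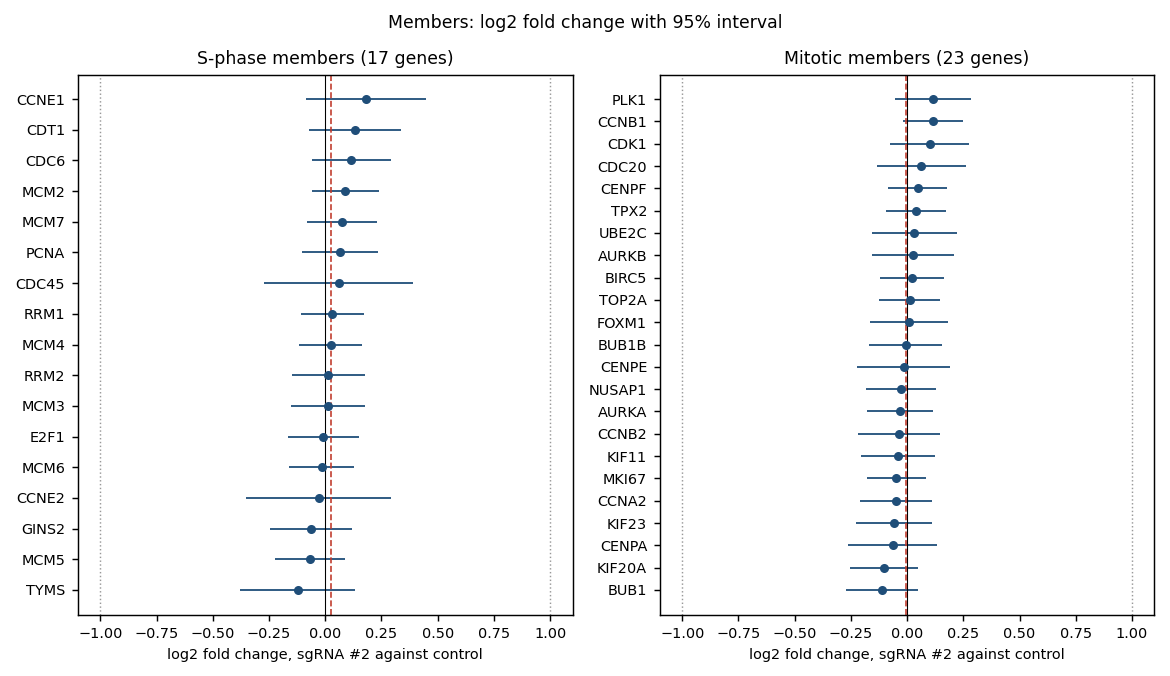
Log2 fold change, sgRNA #2 over sgRNA control, with its 95% interval (horizontal bars) for each of the 40 members, S-phase and mitotic members in separate groups. Points ran from -0.12 to 0.18 and every interval crossed 0.

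Summed over each class, the members took almost the same share of the RNA in both groups. The 17 S-phase members summed to 2095, 1847 and 2003 CPM in the control libraries and to 2080.4, 1947 and 2052 CPM with sgRNA #2. The 23 mitotic members summed to 4424, 4082 and 4233 CPM in the control libraries and to 4356, 4105 and 4308 CPM with sgRNA #2. In both classes and both groups replicate 2 was the lowest, and the groups overlapped. The sgRNA #2 mean over the control mean was 1.02 for S-phase members (1982 ± 125 against 2026 ± 70.3 CPM, SD, n = 3 each) and 1.00 for mitotic members (4247 ± 172 against 4256 ± 133 CPM). The S-phase sum over the mitotic sum was 0.4735, 0.4525 and 0.4731 in the control libraries and 0.4776, 0.4742 and 0.4762 with sgRNA #2. Unlike the sums, this ratio was higher in every sgRNA #2 library than in every control library, narrowly so beside control replicates 1 and 3, with control replicate 2 the farthest below. The means were 0.466 ± 0.0120 and 0.476 ± 0.00170 (SD, n = 3 each), a ratio of 1.02, and no test was made of this value because it is a score over the chosen members. All 40 members together made up 0.592% to 0.646% of gene counts in the control group and 0.611% to 0.641% with sgRNA #2. In bulk RNA, fewer cells in a phase and less RNA per cell in that phase cannot be told apart.

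Levels are also given per length, as CPM per kilobase of exon averaged over the 6 libraries, and members of both classes were expressed. The length was the union of all annotated exons, 1403 bases for PCNA, 9852 for MCM4 and 9153 for RRM2. Class medians and ranks depend on these lengths, and which transcripts the cells made was not examined. In CPM alone MCM4 (mean 332 in the control group) lay above PCNA (120). Mitotic members had a median level of 32.2 and S-phase members of 22.96 CPM per kb. TOP2A (topoisomerase II alpha, which untangles chromosomes), PCNA (the sliding clamp of DNA polymerase), CCNB1 and MKI67 were the most abundant, at 87.9, 87.5, 81.7 and 73.9 CPM per kb. The helicase subunits ran from 54.5 CPM per kb for MCM7 to 10.6 CPM per kb for MCM5. CCNE2, a cyclin that drives entry into S phase, was the least abundant S-phase member at 3.54 CPM per kb, next to CDC45 at 3.68, and CENPE, a kinetochore motor, was the least abundant mitotic member at 5.71 CPM per kb. CDK1, FOXM1, AURKB, CCNA2, KIF11 and PLK1 lay together between 30.4 and 35.1 CPM per kb.

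**Figure D3:**
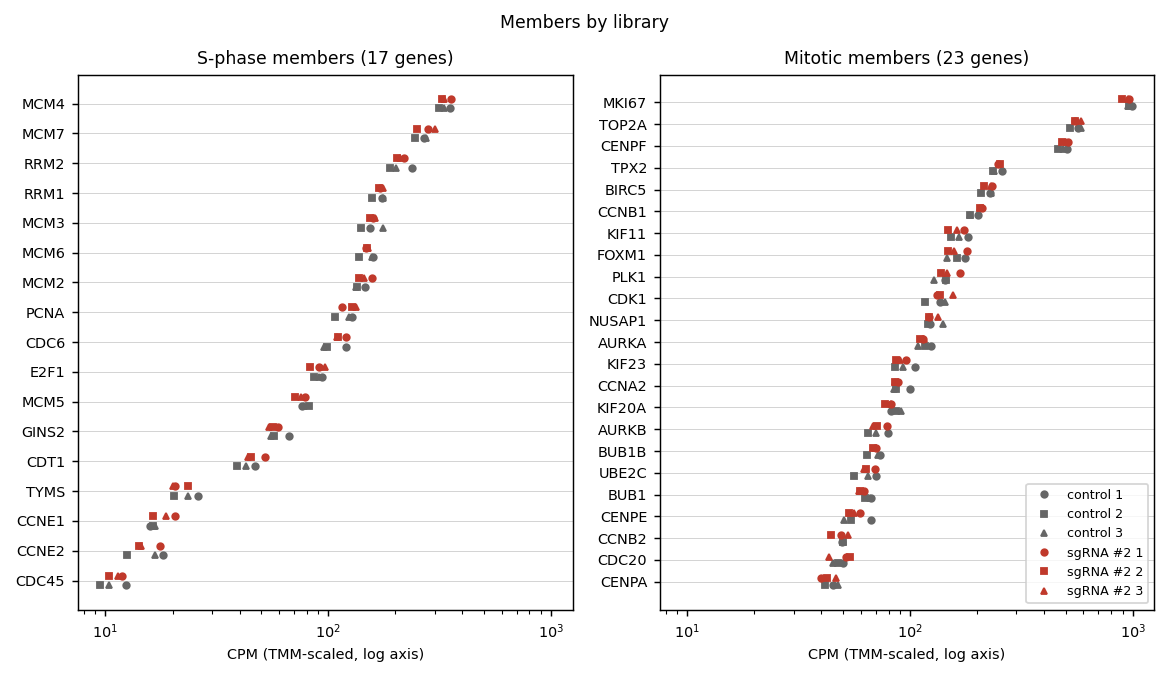
CPM (horizontal log axis) of each of the 40 members, ordered by mean level, in every library, with grey symbols for control and red for sgRNA #2 and 1 symbol shape per replicate number. The 2 colours overlapped for all members but 2, CCNB1 (185 to 201 against 205 to 209 CPM) and BUB1 (62.5 to 67.0 against 59.0 to 62.0 CPM).

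Regulators at the entry to S phase did not pass the test, and their groups overlapped. E2F1, the activator of the programme, was at 94.0, 86.0 and 91.2 CPM in the control libraries and at 90.5, 82.6 and 96.4 CPM with sgRNA #2, with a log2 fold change of -0.01 (95% interval -0.17 to 0.15). CCNE1, which encodes cyclin E1 and had the highest log2 fold change of the members, was at 15.9, 16.3 and 16.7 CPM in the control libraries and at 20.5, 16.4 and 18.7 CPM with sgRNA #2. The control libraries lay close together, the sgRNA #2 libraries were more spread, and the lowest of these (16.4 CPM) fell inside the control range. Its log2 fold change was 0.18 (SE 0.126, edgeR quasi-likelihood test with Benjamini-Hochberg adjustment, adjusted p = 0.681, or 0.417 with the replicate block). Within each replicate number the sgRNA #2 library was the higher for CCNE1, in replicate 2 only by 16.4 against 16.3 CPM. CCNE1 had the highest fold change of the members, so this order follows in part from that choice. CCNE2, its paralogue, was at 18.2, 12.5 and 16.7 CPM against 17.5, 14.1 and 14.5 CPM, so that replicate 2 was low in both groups and the interval (-0.35 to 0.29) was among the widest.

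Licensing factors and the helicase, which load onto origins before S phase, had small values on both sides of 0, and none passed the test. CDC6, a loader of the helicase, was at 120.1, 98.5 and 95.7 CPM in the control libraries and at 120.5, 110.2 and 109 CPM with sgRNA #2 (log2 fold change 0.12, SE 0.0840). CDT1, its partner in loading, was at 46.8, 39.1 and 42.7 CPM against 51.8, 45.1 and 43.6 CPM (log2 fold change 0.13, SE 0.0973). MCM2, a helicase subunit, was at 146, 135 and 133 CPM against 158, 138 and 144 CPM (log2 fold change 0.09, SE 0.0707). For all 3 genes replicate 1 was the highest library in each group and the groups overlapped, with edgeR adjusted p-values of 0.700, 0.711 and 0.733. Within each replicate number the sgRNA #2 library was the higher for all 3 genes. With the replicate block the edgeR adjusted p-values were 0.192, 0.353 and 0.330. The other helicase subunits MCM3 to MCM7 had log2 fold changes between -0.07 (MCM5) and 0.07 (MCM7). CDC45 and GINS2, which join the helicase at firing, were at 0.06 and -0.07.

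Genes of DNA synthesis and nucleotide supply showed no common direction. PCNA was at 128, 107 and 124 CPM in the control libraries and at 116, 127 and 133 CPM with sgRNA #2, a log2 fold change of 0.07 (95% interval -0.10 to 0.23). TYMS, thymidylate synthase, had the lowest log2 fold change of the members. It was at 25.96, 20.4 and 23.5 CPM in the control libraries and at 20.5, 23.4 and 20.2 CPM with sgRNA #2 (-0.12, SE 0.121, edgeR adjusted p = 0.808). Control replicate 2 and sgRNA #2 replicates 1 and 3 lay between 20.2 and 20.5 CPM, so the groups overlapped. TYMS overlaps ENOSF1 and TYMSOS on the opposite strand, and the strand setting of the counting is not given in the sources used here. RRM1 and RRM2, the subunits of ribonucleotide reductase, had log2 fold changes of 0.03 and 0.01.

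Among mitotic genes, CCNB1 and BUB1 were the only members whose groups did not overlap, 2 of 40, where 15.6% of all tested genes had such a separation (6.77% higher and 8.83% lower). CCNB1 (chr5:69167135-69178245, plus strand), the cyclin that drives mitotic entry with CDK1, was at 201, 185 and 186 CPM in the control libraries and at 209, 205 and 206 CPM with sgRNA #2. All sgRNA #2 libraries were above all control libraries, but the gap between the nearest of them was small beside the control range. Its log2 fold change was 0.11 (SE 0.0631, 95% interval -0.02 to 0.25), with an edgeR adjusted p of 0.548. BUB1 (chr2:110637528-110678063, minus strand), a kinase of the spindle assembly checkpoint, was at 67.0, 62.5 and 66.0 CPM in the control libraries and at 62.0, 59.8 and 59.0 CPM with sgRNA #2. The groups were again adjacent, and the log2 fold change was -0.11 (SE 0.0751, edgeR adjusted p = 0.663). BUB1B, another kinase of that checkpoint, had a log2 fold change of -0.01.

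The other mitotic members, among them kinases, motors and the markers most used for proliferation, overlapped between the groups. PLK1, a kinase with roles from mitotic entry to cytokinesis, was at 144, 145 and 128 CPM in the control libraries and at 168, 137 and 146 CPM with sgRNA #2 (log2 fold change 0.12, SE 0.0797, edgeR adjusted p = 0.677). KIF20A, a kinesin of cytokinesis, was at 81.7, 86.0 and 91.0 CPM against 81.8, 77.2 and 82.5 CPM (log2 fold change -0.10, SE 0.0719, edgeR adjusted p = 0.691). The groups overlapped for both genes, PLK1 with its lowest sgRNA #2 library inside the control range. MKI67 (chr10:128096659-128126423, minus strand) was at 989.9, 959.8 and 946 CPM in the control libraries and at 964, 889 and 949 CPM with sgRNA #2. TOP2A was at 567, 524 and 583 CPM against 552, 551 and 585 CPM. Their log2 fold changes were -0.05 (95% interval -0.18 to 0.08) and 0.01 (95% interval -0.12 to 0.15). MKI67 was lowest in replicate 2 of sgRNA #2 and TOP2A in replicate 2 of the control group. FOXM1, the forkhead activator of mitotic genes, was at 176, 163 and 146 CPM against 181, 149 and 157 CPM, a log2 fold change of 0.01 (SE 0.0824). CENPE was at 66.6, 54.3 and 50.4 CPM against 59.3, 53.3 and 56.1 CPM, a log2 fold change of -0.01 (SE 0.0983). Replicate 1 was the highest library of each group for FOXM1 and for CENPE.

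Members with and without the promoter letters of their class had overlapping fold changes. The 10 S-phase members with E2F letters had a median log2 fold change of 0.04 (-0.12 to 0.13), and the other 4 with a window also had 0.04 (0.01 to 0.18). The 12 mitotic members with CHR letters had a median of -0.02 (-0.06 to 0.12), and the other 6 had -0.03 (-0.11 to 0.11).

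Members shared a deviation by replicate number in both groups. Libraries with the same number deviated together over all genes, with correlations of 0.281, 0.295 and 0.301 for replicates 1, 2 and 3 between the groups (a description over genes). In a fit with guide and replicate number, the estimate for replicate 2 against replicate 1 was below 0 for all 40 members, where 48.99% of all tested genes were. Its median was -0.15 for S-phase and -0.09 for mitotic members, and replicate 3 against replicate 1 had medians of -0.08 and -0.05. Within the control group 35 of 40 members were lower in replicate 2 than in replicate 1, within the sgRNA #2 group 32 were, and 27 (67.5%) were lower in both, against 30.6% of all tested genes. Other cell cycle genes, from the 5 lists described further on, went the same way, with 94 of 156 lower in both groups (60.3%) and 122 of 156 below 0 in the fit, at a median of -0.11, so the deviation was not particular to the 40 members. The sum of S-phase members in replicate 2 was 0.882 of replicate 1 in the control group and 0.936 with sgRNA #2, and that of mitotic members 0.923 and 0.942. What the replicate numbers stand for (a day, a passage or a plate) is not given in the labels.

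**Figure D4:**
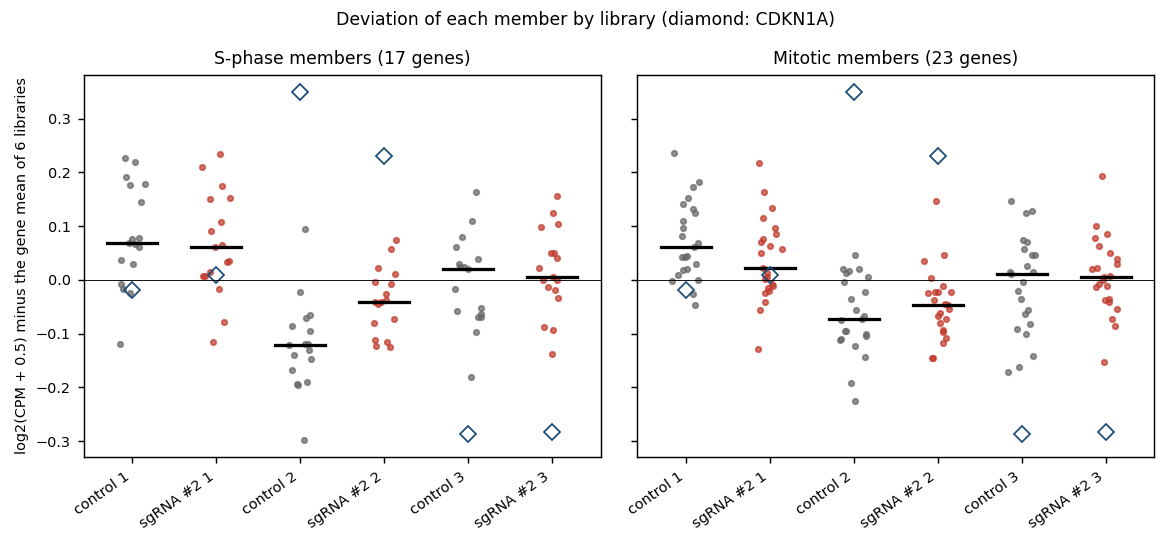
Deviation of each member (point) from its own mean over the 6 libraries, on the log2(CPM + 0.5) scale of the vertical axis, by library, with the class median as a bar and CDKN1A as a diamond. The bar of replicate 2 was the lowest in both groups, at -0.12 and -0.04 for S-phase members and at -0.07 and -0.05 for mitotic members, while the diamond was highest there.

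The replicate term itself passed an adjusted p of 0.05 for 11 of 40 members, against 13.2% of all tested genes and 15.7% of those in the same abundance range (edgeR quasi-likelihood test of the replicate terms, Benjamini-Hochberg, chosen after seeing the data). They were CDC6, RRM2, MCM3 and MCM7 among S-phase members and CENPE, KIF23, PLK1, KIF11, AURKB, FOXM1 and CDK1 among mitotic members. KIF11 was at 182, 152 and 166 CPM in the control libraries and at 175, 148 and 163 CPM with sgRNA #2, the same order of replicates in each group (replicate term, edgeR adjusted p = 0.00340). CDK1, the kinase that CCNB1 activates, was at 136, 117 and 143 CPM against 133, 137 and 156 CPM, highest in replicate 3 of each group (replicate term, edgeR adjusted p = 0.00647). CDKN1A, which encodes p21, was at 294, 379 and 244 CPM in the control libraries and at 299, 349 and 244 CPM with sgRNA #2. Replicate 2 was thus the highest library for CDKN1A in each group and the lowest for the sums of both classes (replicate term for CDKN1A, edgeR adjusted p = 2.90e-22). Between the groups CDKN1A had a log2 fold change of -0.04 (SE 0.130, 95% interval -0.31 to 0.24, edgeR adjusted p = 0.954). KRT8 also differed by replicate, at 1635, 2064 and 1627 CPM in the control libraries and at 1485, 1825 and 1543 CPM with sgRNA #2, so replicate 2 differed from the others beyond the cell cycle genes. Whether the difference in CDKN1A bears on that of the members was not tested.

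With the replicate number as a block in the model, the count over the whole table rose from 359 to 1339 genes at an adjusted p under 0.05 (10.0% of tested genes, or 0.913% with a log2 fold change of at least 1 in size), and still 0 of 40 members passed, the smallest adjusted p being 0.112 for CCNB1. In that fit edgeR estimated infinite prior degrees of freedom, so each gene's spread was set by the trend with abundance. No member passed in any of the 6 fits that left out 1 library, in which the smallest adjusted p of a member ranged from 0.191 to 0.710.

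The rest of the cell cycle machinery was read from 5 further lists with 159 genes, 156 of them tested: other replication genes, other mitotic genes, G1 cyclins and CDK inhibitors, regulators of the E2F, RB and DREAM complexes, and checkpoint kinases. Across them 1 gene (CIT) changed at an adjusted p under 0.05, against the background of 2.69%, and 11 had an unadjusted p under 0.05, against 11.1%. The median log2 fold change was 0.02 over the 156 genes. With the replicate block 12 passed, 5 higher and 7 lower, against 10.0% of all tested genes.

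**Figure D5:**
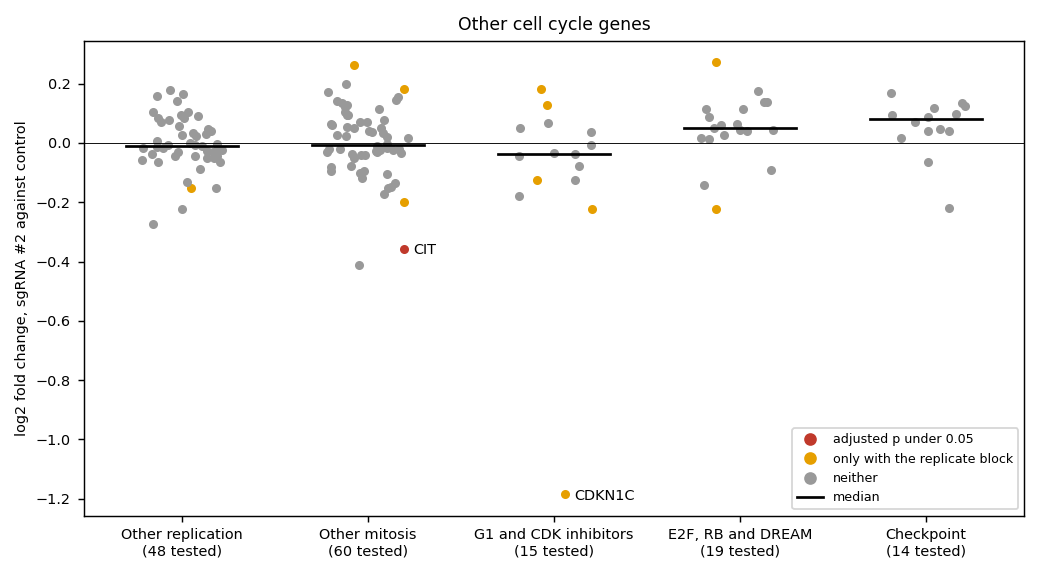
Log2 fold change (sgRNA #2 over sgRNA control) of each tested gene in the 5 other cell cycle lists, with list medians as bars, red for genes past an adjusted p of 0.05 and orange for those past it only with the replicate block. CIT (-0.36) was the 1 red gene, and CDKN1C (-1.18) lay farthest from 0.

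CIT (chr12:119685791-119877320, minus strand), which encodes citron kinase of the cytokinetic midbody, was at 77.6, 71.1 and 81.1 CPM in the control libraries and at 61.2, 55.3 and 63.1 CPM with sgRNA #2. Every sgRNA #2 library lay below every control library. The mean fell from 76.6 ± 5.06 to 59.9 ± 4.09 CPM (SD, n = 3 each), a log2 fold change of -0.36 (SE 0.0810, 95% interval -0.53 to -0.19, edgeR quasi-likelihood test with Benjamini-Hochberg adjustment, adjusted p = 0.0195). DESeq2 also called it (adjusted p = 0.0430). The call was lost without control replicate 1 (edgeR adjusted p = 0.0518), control replicate 3 (0.109), sgRNA #2 replicate 1 (0.0709) or sgRNA #2 replicate 2 (0.120), with log2 fold changes of -0.41 to -0.30 over the 6 fits that left out 1 library. CIT overlaps MIR1178 on its own strand and an unnamed gene on the opposite strand.

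The other mitotic genes (60) had a median log2 fold change of -0.01. The lowest value was that of NDC80, a kinetochore protein that binds microtubules, at -0.41 (SE 0.179, edgeR adjusted p = 0.378). HMMR, a spindle-associated hyaluronan receptor, was at 59.9, 57.4 and 56.4 CPM in the control libraries and at 66.7, 69.4 and 72.5 CPM with sgRNA #2. The groups were apart, with a log2 fold change of 0.26 (SE 0.0755) and an edgeR adjusted p of 0.0811, or 0.00115 with the replicate block. ECT2, which activates RhoA at the cleavage site, and ANLN (anillin), a scaffold of the contractile ring, also passed only with the block, ECT2 higher (log2 fold change 0.18, edgeR adjusted p = 0.00333 with the block) and ANLN lower (-0.20, edgeR adjusted p = 4.30e-04 with the block). NDC80, HMMR, ECT2 and ANLN were named after their values were seen. ANLN was at 282, 232 and 250.3 CPM in the control libraries and at 229, 209 and 227 CPM with sgRNA #2, so every sgRNA #2 library was below every control library.

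The other replication genes (48) had 0 calls, a median log2 fold change of -0.01 and 1 gene with an unadjusted p under 0.05 (edgeR), and DESeq2 called none. TK1, the thymidine kinase of S phase, was at 195, 205 and 207 CPM in the control libraries and at 181, 170.3 and 196 CPM with sgRNA #2. The highest sgRNA #2 library reached into the control range, and the log2 fold change was -0.15 (SE 0.0675, edgeR adjusted p = 0.386, or 0.0179 with the replicate block). RNASEH2A, a subunit of ribonuclease H2, was at 15.8, 21.5 and 19.98 CPM against 14.2, 16.7 and 16.8 CPM, a log2 fold change of -0.27 (SE 0.139, edgeR adjusted p = 0.502).

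G1 cyclins and CDK inhibitors held the farthest value from 0 but had 0 calls among 15 tested genes, 3 with an unadjusted p under 0.05. CDKN1C (chr11:2883213-2885775, minus strand), which encodes the CDK inhibitor p57, was low in raw counts, at 22, 23 and 23 in the control group and 9, 14 and 5 with sgRNA #2. Every sgRNA #2 library was below every control library. The log2 fold change was -1.18 (SE 0.331, 95% interval -1.88 to -0.49), with an edgeR adjusted p of 0.0727, or 0.00415 with the replicate block and 0.361 by DESeq2. CCND3, cyclin D3, was at 278, 315 and 269 CPM against 332, 335 and 311 CPM, a log2 fold change of 0.18 (SE 0.0699, edgeR adjusted p = 0.271, or 7.99e-04 with the block). With the block MYC was also higher, and CCND1 (cyclin D1) and SKP2 (a ubiquitin ligase subunit that targets p27) were lower, with edgeR adjusted p-values of 0.0398, 0.0356 and 0.0264. CDKN2A and CDKN2B had 0 counts in all 6 libraries, so their level was at most 0.4997 CPM in any library (a limit for counting error only), and CCND2 had at most 1 count.

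Regulators of the E2F, RB and DREAM complexes (19) had 0 calls, a median log2 fold change of 0.05 and 2 genes with an unadjusted p under 0.05. E2F2, an activator of the E2F family, was at 35.2, 28.3 and 33.0 CPM in the control libraries and at 41.7, 36.8 and 37.8 CPM with sgRNA #2. TFDP2, a partner that E2F proteins need to bind DNA, was at 53.7, 56.5 and 63.5 CPM against 48.8, 49.6 and 51.0 CPM. The groups were apart in both genes, in opposite directions. Their log2 fold changes were 0.27 (SE 0.103) and -0.22 (SE 0.0853), with edgeR adjusted p-values of 0.265 and 0.275, or 0.0212 and 0.0237 with the replicate block. Checkpoint kinases and their partners (14) had 0 calls with or without the block, 0 with an unadjusted p under 0.05 and 0 by DESeq2, and a median log2 fold change of 0.08. CHEK1, the kinase that restrains mitosis when replication stalls, was at 45.1, 45.6 and 49.4 CPM against 49.6, 51.2 and 53.1 CPM, a log2 fold change of 0.13 (SE 0.0834, edgeR adjusted p = 0.622). RAD9A, a part of the checkpoint clamp, was at 29.8, 38.8 and 33.4 CPM against 37.6, 40.1 and 37.3 CPM, a log2 fold change of 0.17 (SE 0.105, edgeR adjusted p = 0.616).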

How the data were processed

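For each of 6 libraries the deposited values are raw read counts by gene symbol, which the authors made with HTSeq, and the submitters' processing notes also name Trim Galore, FastQC, Bowtie2 2.3.3.1, SAMtools, Picard and the build hg38. Which gene annotation and which strand option were used is not given in the sources used here. Read counts outside any gene (19.7% to 21.1% of listed reads) and ambiguous reads (2.61% to 2.75%) were left out of library sizes. Of the symbols, 13356 reached 10 counts in 3 or more libraries and entered the quasi-likelihood F test of edgeR 4.0.16 (R 4.3.3, TMM scaling, Benjamini-Hochberg adjustment), all 6 libraries in 1 fit without covariates. The fitting was checked on simulated data, with planted changes larger than those of the members and no replicate effect. That check does not bear on changes as small as the members' own. A gene was called at an adjusted p under 0.05, and the count with a log2 fold change of at least 1 in size, as the study required, is in the closing section. The standard error was the absolute log2 fold change over the square root of F. The study used DESeq2, which was an alternative (1.42.0), as were other size factors, other count filters, leaving out each library, and the replicate number as a block. Same-numbered libraries correlated at 0.281, 0.295 and 0.301 in their deviations from the group means, so the block fit took the numbers to pair the libraries. That pairing comes from the data and the labels' numbers. The main fit did not use it, so the standard errors, intervals and p-values given without mention of the block leave the pairing out. Members and lists were chosen with earlier results of these data known, and no list was tested. Named genes were those past the threshold, the 4 with the smallest p in each class, the highest and lowest fold change, the most and least abundant per length, a preset group (MKI67, TOP2A, CCNB1, CCNE1, E2F1, FOXM1, PCNA, MCM2, CDKN1A) and the 2 smallest p of each other list without a call. Outside these rules, KIF11 and CDK1 were named for their replicate terms, and MYC, CCND1 and SKP2 for passing with the replicate block. Gene positions and exon lengths came from GENCODE 44 (GRCh38), where 21 of the 40 members overlap another annotated gene, 17 of them on the opposite strand. Libraries of a group differed by more than sampling noise (chi-square per degree of freedom 2.73 to 3.61).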

Additional observations from a re-analysis of the deposited data

How the results depend on the processing

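The 0 calls among S-phase and among mitotic members held in every alternative run (DESeq2, other size factors, both count filters, equal depth, the replicate block and each left-out library). The median log2 fold change of S-phase members ranged from -0.02 (without control replicate 2) to 0.07 (without control replicate 1), that of mitotic members from -0.03 to 0.03 for the same libraries, and their difference from 0.01 to 0.04. Over the whole table, 96 genes passed an adjusted p under 0.05 with a log2 fold change of at least 1 in size, and 63 did with at least 10 counts in every library. At an adjusted p alone the 359 calls became 583 with no count filter, 1339 with the replicate block (paired fit), and 224 (without sgRNA #2 replicate 1) to 327 with 1 library left out, 233 without control replicate 2. The other cell cycle lists had 1 call (CIT), 2 with no count filter (CIT and CDKN1C, the latter at an edgeR adjusted p of 0.0227), 12 with the replicate block, and 0 to 1 with 1 library left out (0 without control replicate 1, control replicate 3 or sgRNA #2 replicate 1). The replicate block changed no call of a member. Leaving out 1 library turned the direction of PCNA (log2 fold change -0.0096 to 0.13), CCNE2 (-0.17 to 0.074), TOP2A (-0.030 to 0.044), CENPE (-0.10 to 0.11), E2F1 (-0.062 to 0.047), FOXM1 (-0.075 to 0.070) and CDKN1A (-0.18 to 0.15), none of which passed a threshold. Several other members kept their direction but moved in size. CCNE1 ranged from 0.10 to 0.26, CDC6 from 0.053 to 0.22, CDT1 from 0.055 to 0.20 and MCM2 from 0.036 to 0.13. PLK1 ranged from 0.033 to 0.18, TYMS from -0.21 to -0.043, KIF20A from -0.14 to -0.061 and MKI67 from -0.067 to -0.014. Of 311 values of 26 named genes over the alternatives, 285 kept their direction and side of the threshold, 7 came to pass it, 4 no longer did and 15 reversed. Without sgRNA #2 replicate 2 the 1 call was CDKN1C in place of CIT, at a log2 fold change of -1.58 (edgeR adjusted p = 0.035). The cause of these shifts was not tested. Precision was lower for CCNE2 and CDC45, at the low end of the members' CPM, with standard errors of 0.153 and 0.157, against 0.0627 for MKI67, and the part of depth in this was not tested.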

Other observations

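Genes whose symbols begin with HIST, which encode histones and are mostly made in S phase, were counted after the data were examined. There were 73 such symbols, 19 with 0 counts in all libraries and 13 tested. Their sum was 158, 177 and 142 CPM in the control libraries and 159, 183 and 155 CPM with sgRNA #2 (159 ± 17.4 and 166 ± 15.1 CPM, SD, n = 3 each), highest in replicate 2 of both groups, where the sums of the S-phase and mitotic members were lowest. HIST1H2BK was the most abundant, at a mean of 45.4 CPM, a large part of the sum for 1 gene. Whether the sum follows S phase in these libraries was not tested. By edgeR's quasi-likelihood test 0 of the 13 passed an adjusted p under 0.05 between the groups, against 2.69% of all tested genes. At an unadjusted p under 0.05, 0 of 13 passed, against 11.1%. DESeq2 called 0 of the 13 between the groups. The estimate was higher in replicate 2 than in replicate 1 for 12 of 13, where 48.99% of all tested genes were lower. The replicate term passed an adjusted p of 0.05 for 4 of 13 (edgeR quasi-likelihood test), against 13.2%.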
